A study of Mus musculus with 12 samples.

Results

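All mice carrying a deleted Slc6a20a allele were compared as a single group with wild-type (WT) mice, in whole-brain RNA. The mutant group was taken by genotype label alone. It held 8 of the 12 mice sequenced, namely 4 Slc6a20a+/- (HT) mice, which lack exon 3 of Slc6a20a on 1 allele, and 4 Slc6a20a-/- (HM) mice, which lack it on both, and the other 4 mice were WT. All 12 were C57BL/6N males at about postnatal day 120 and were bred from heterozygous parents, and each library came from 1 brain. The sources name no promoter or cell type to which the deletion is limited, and whole-brain RNA mixes all cell types. Pooling asks which transcripts differ from WT after loss of at least 1 allele, and it treats mice with 1 and with 2 lost alleles alike.

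Slc6a20a encodes a sodium- and chloride-dependent transporter of the plasma membrane that takes up proline and glycine. Glycine is the transmitter of inhibitory glycine receptors and also a co-agonist of NMDA receptors, excitatory glutamate receptors that open only when both agonists are bound. Transporters of this kind therefore set how much glycine surrounds synapses.

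The deleted exon defines the mutant group, and it is shown here because its length bears on the message that remains. In transcript Slc6a20a-201 (GENCODE M21, GRCm38, minus strand, 11 exons), exon 3 spans chr9:123662949-123663040. It has 92 bases, all coding, and is printed 5′ to 3′ on the coding strand.
Slc6a20a exon 3: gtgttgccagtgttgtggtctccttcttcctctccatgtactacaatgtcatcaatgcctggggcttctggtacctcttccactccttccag
A message that joins exon 2 to exon 4 leaves the reading frame, because 92 bases divided by the 3 of a codon leave 2. The next sequence shows the last 30 bases of exon 2 and the 53 bases of exon 4 before the first stop codon in the shifted frame, with that stop in capitals.
Exon 2 to exon 4 join: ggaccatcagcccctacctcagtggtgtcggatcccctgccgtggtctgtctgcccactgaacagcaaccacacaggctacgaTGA
The stop is codon 106 of the joined message, whereas the full coding sequence has 592 codons.

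The deposited table gave 19775 genes as normalized counts, that is, estimated read numbers scaled so that libraries of different depth can be compared. A gene was tested if its mean over the 12 mice was at least 10, which left 18006 genes. Totals per mouse were 33284951 to 33748623 normalized counts. Scaling makes such totals alike, so they do not show how deeply each library was sequenced. The worth of 1 read was estimated at 0.93 to 1.11 normalized counts. It was sought only near 1, so it does not show depth either. All 8 neuronal, 8 astrocyte, 8 oligodendrocyte and 9 microglial markers passed this limit, and the neuronal markers summed to between 277270 and 300490 normalized counts per mouse. WT replicate 1 stood apart from the other 11 mice. Genes were ordered by transcript length into 10 bins of like size, and levels were centred per gene on the log2 scale. In this mouse the median of the longest bin minus that of the shortest was -0.249, whereas in the other mice it was between -0.0677 and 0.0725. Many gene-list results and some single genes are therefore given with and without WT replicate 1.

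Differences are log2(normalized count + 1) of mutants minus WT, with a standard error (SE). The test was limma, a linear model that moderates the variance of each gene across all genes, with Benjamini-Hochberg (BH) adjustment of p over the 18006 genes.

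Slc6a20a (ENSMUSG00000036814, chr9:123634770-123678885) was the gene with the widest gap between the groups among those lower in mutants. WT replicates 1 to 4 had 704, 584, 678 and 750.5 normalized counts. HT replicates 1 to 4 had 332, 366, 372 and 310.3, and HM replicates 1 to 4 had 69.0, 55.6, 76.5 and 57.1. No mutant overlapped the WT mice, and HT and HM mice did not overlap each other. The pooled mutant mean was 205 ± 151 (SD, 8 mice) against 679 ± 70.1 (SD, 4 mice), which is 30.1% of WT. The pooled log2 difference was -2.18 (SE 0.52, unadjusted p = 6.09e-04, BH-adjusted p = 0.274, limma), so that the targeted gene itself missed the adjusted threshold when the mutants formed 1 group. In a fit with 3 genotypes, where the spread is taken within each genotype, the same average difference had an adjusted p of 3.53e-09 (limma, BH). The two-sided exact permutation test over all ways of setting 4 mice against 8 gave p = 0.00404, above the smallest possible value of 0.00202, because the arrangement that sets the 4 HM mice apart gives a larger difference. HM minus HT was -2.41 (BH-adjusted p = 6.86e-09, limma).

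Slc6a20b, the neighbouring paralog of Slc6a20a, had 31.2, 32.7, 25.5 and 27.1 normalized counts in the 4 WT mice and between 11.1 and 33.4 in mutants, with a median of 21.6. The groups overlapped, and the difference was -0.45 (SE 0.25, adjusted p = 0.609, limma). It was -0.12 for HT and -0.78 for HM mice. All HM values (11.1 to 23.8) lay below the WT values, so the overlap came from HT mice. Reads of the paralogs could be shared, so the level of Slc6a20b is uncertain. The annotated transcripts Gm17120, Gm47173 and Gm47171 lie inside the span of Slc6a20a. Gm17120 averaged 17.9 ± 9.83 normalized counts (SD) in WT mice, 8.97 ± 3.42 in HT and 7.7 ± 0.897 in HM mice. Gm47171 averaged 68.9 ± 18.4, 47.8 ± 12.2 and 30.9 ± 12.6 in the same order, and in both transcripts mutants overlapped the WT mice. Gm47173 averaged 66.9 ± 10.1 normalized counts (SD) in WT mice. The HT mean was 43.1 ± 6.57 and the HM mean 19.6 ± 10.1, with all mutant values below the WT values. Gm17120 and Gm47173 are annotated on the strand opposite to Slc6a20a, and since the library kit does not mark strand, their reads cannot be told apart from Slc6a20a reads of the same bases. Gm47171 lies on the same strand, and sharing of its reads with Slc6a20a was not measured. These 3 transcripts were looked at for their position and not for their values.

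Across the 18006 genes, no gene had an adjusted p under 0.05 (limma, BH; 0.0% of genes tested). At an unadjusted p under 0.05 there were 906 genes higher in mutants, which is 5.03% of genes tested, and 726 lower, which is 4.03%. The exact permutation test gave 1614 genes with an unadjusted p under 0.05, or 8.96%, and likewise no gene after adjustment, with a smallest adjusted p of 0.325. The smallest BH-adjusted p from limma was 0.26 and was shared by 29 genes. Values of single genes below are therefore given as measured differences that did not pass the adjusted test. The median SE of a difference was 0.0711.

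The 12 genes higher in mutants with the smallest p included several surface proteins of neurons. Tenm3, Nlgn3, Astn1 and Robo2 encode proteins of cell contact, guidance or migration, and Map1a and Actr10 encode proteins of the microtubule system. The differences ranged from 0.13 for Sez6 to 0.44 for Cdc73. In 11 of these 12 genes every mutant lay above every WT mouse, the exception being Slc8a2, but the genes were picked by that same comparison.

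**Figure D1:**
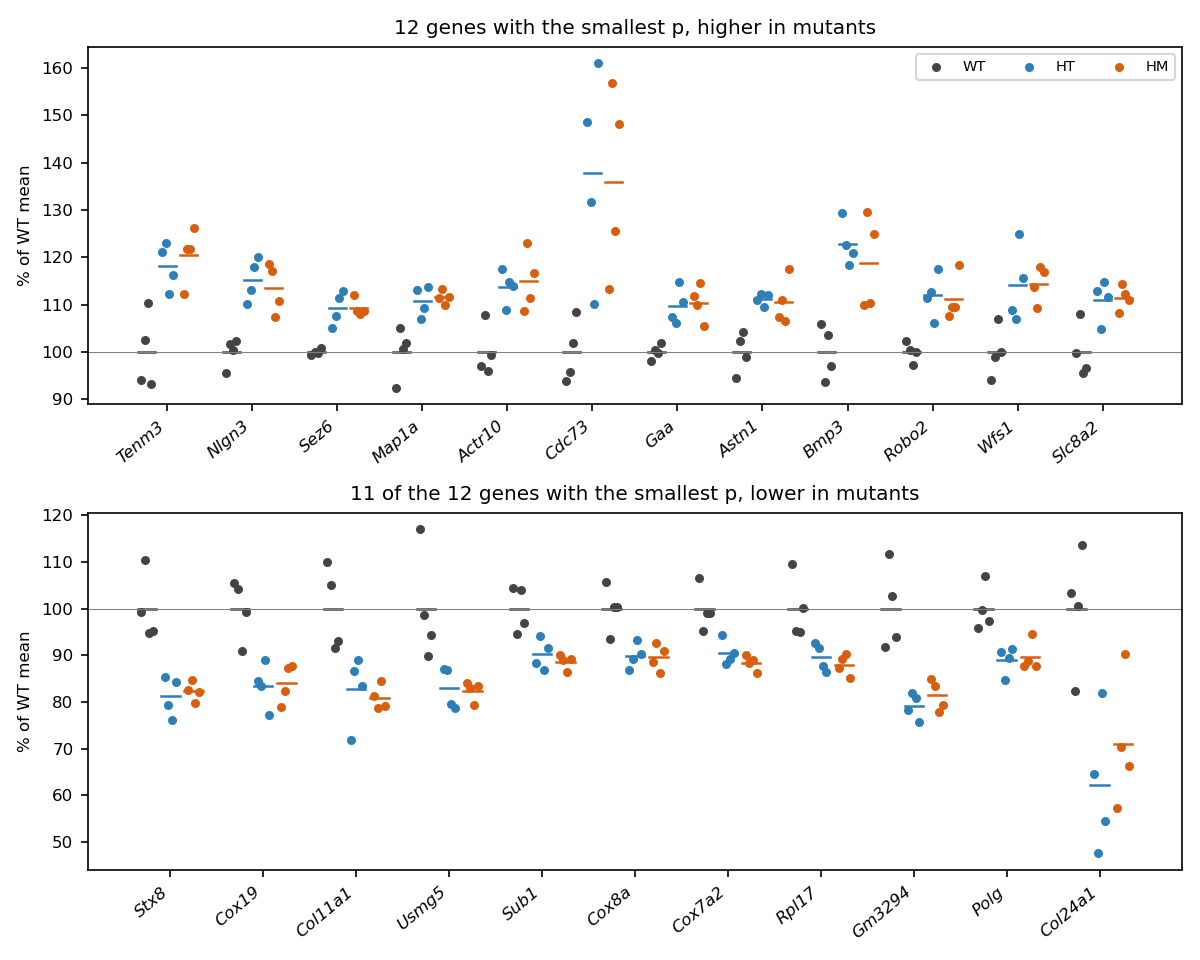
Normalized counts of each mouse as a percentage of the WT mean (y axis, not starting at 0) for the 12 higher genes and 11 of the 12 lower genes with the smallest p (x axis). Points are single mice (4 WT, 4 HT, 4 HM) and short lines are genotype means. Cdc73 has a pooled mutant mean of 136.9% of WT and Col24a1 of 66.6%.

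Tenm3 (chr8:48227682-48843951), a teneurin, an adhesion protein that spans the neuronal membrane, had the smallest p of all genes. WT replicates 1 to 4 had 2792, 3042, 3276 and 2769 normalized counts, and the mutants had 3330.0 at the lowest, 3607 at the median and 3745 at the highest. The groups did not overlap, although WT replicate 3 came close to the lowest mutant. The difference was 0.26 (SE 0.05, unadjusted p = 3.54e-05, adjusted p = 0.26, limma), 0.24 for HT and 0.27 for HM mice, which share the WT mice.

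Nlgn3 (chrX:101299168-101325963), a neuroligin of the postsynaptic membrane that binds neurexins, had 3709.6, 3945, 3899 and 3967 normalized counts in WT mice. The mutants had 4166 at the lowest, 4465 at the median and 4655 at the highest. The groups were apart by 0.0707 on the log2 scale, a wider gap than in Tenm3, and the difference was 0.19 (SE 0.04, unadjusted p = 4.49e-05, adjusted p = 0.26, limma). It was 0.20 for HT and 0.18 for HM mice.

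Cdc73 (chr1:143598800-143702893) encodes parafibromin, a subunit of the PAF1 complex that travels with RNA polymerase II. WT mice had 1262, 1289, 1369.9 and 1458 normalized counts, and mutants 1481 at the lowest, 1882 at the median and 2165 at the highest. The mutants were spread more widely than the WT mice, with the lowest mutant just above the highest WT mouse. The difference was 0.44 (SE 0.09, adjusted p = 0.26, limma). Tenm3, Nlgn3 and Cdc73 were listed by the study as changed in both mutant genotypes of these same mice, so that their values here are not independent evidence.

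Sez6 (chr11:77930800-77979048), a transmembrane protein of dendrites, had 7768, 7815, 7793 and 7886 normalized counts in WT mice. The mutants had 8207, 8492 and 8814 at the lowest, the median and the highest. Robo2 (chr16:73891839-74411825), a receptor for Slit guidance proteins, had 3454, 3389, 3279 and 3377 in WT mice against 3584, 3727 and 3995 in mutants. In both genes all mutants lay above all WT mice, with differences of 0.13 (SE 0.03) for Sez6 and 0.16 (SE 0.03) for Robo2.

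Map1a, a microtubule-associated protein of dendrites, had 40089 ± 2153 (SD) normalized counts in WT and 44559 ± 925 in mutants. Actr10, a subunit of the dynein activator dynactin, had 2958 ± 159 and 3381 ± 141. Astn1, which neurons use to migrate along glia, had 8577 ± 367 and 9514 ± 287. Each of these 3 genes had a difference between 0.15 and 0.19. After correction for transcript length and GC content, Map1a was at 0.10, Astn1 at 0.11 and Actr10 at 0.20. Without WT replicate 1, Map1a was at 0.12. Bmp3, a ligand of the bone morphogenetic protein family, was less abundant, with 494.0 ± 27.9 in WT and 597 ± 37.5 in mutants, a difference of 0.27 (SE 0.06). Gaa, which breaks down glycogen in lysosomes, was higher by 0.14, Wfs1, a membrane protein of the endoplasmic reticulum, by 0.19, and the sodium-calcium exchanger gene Slc8a2 by 0.15.

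The 12 genes lower in mutants with the smallest p were of other kinds. Cox19, Cox8a, Cox7a2, Usmg5 and Polg serve mitochondria, Col11a1 and Col24a1 encode fibrillar collagens, and Rpl17 encodes a protein of the cytosolic ribosome. The differences ranged from -0.15 for Cox8a to -0.60 for Col24a1, and in 11 of the 12 all mutants lay below all WT mice.

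Stx8 (chr11:67966193-68207148), a SNARE protein of endosomes, had the smallest p in this direction. WT replicates 1 to 4 had 593, 659.5, 566 and 568 normalized counts, and the mutants had 454 at the lowest, 492 at the median and 509.8 at the highest. The highest mutant lay 0.151 below the lowest WT mouse on the log2 scale. The difference was -0.29 (SE 0.05, unadjusted p = 6.38e-05, adjusted p = 0.26, limma), -0.30 for HT and -0.28 for HM mice.

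Cox19 (chr5:139336189-139351418), an assembly factor of cytochrome c oxidase, had 1010.0, 998, 872 and 952 normalized counts in WT mice and 741, 804 and 854 at the lowest, the median and the highest of the mutants. WT replicate 3 lay nearest to the mutants. Polg (chr7:79446231-79466362), the catalytic subunit of the mitochondrial DNA polymerase, had 2929, 3045, 3264 and 2972 in WT mice and 2589, 2721 and 2887 in mutants. The differences were -0.25 (SE 0.05) for Cox19 and -0.16 (SE 0.04) for Polg, without overlap in either gene.

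Col11a1 (chr3:114030540-114220718) had 1443, 1377, 1202 and 1221 normalized counts in WT mice and 942, 1081 and 1167 at the lowest, the median and the highest of the mutants, a difference of -0.29 (SE 0.06). Col24a1 (chr3:145292472-145552011) had 659, 525, 642 and 724 in WT mice and 303, 417 and 575 in mutants. The groups overlapped in Col24a1, since WT replicate 2 lay below the highest mutant, and the difference was -0.60 (SE 0.14, adjusted p = 0.26, limma).

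Usmg5, a small subunit of the ATP synthase, had 2853 normalized counts in WT replicate 1 and 2403, 2189 and 2302 in the other WT mice, against 1918 to 2125 in mutants. Its difference of -0.27 was -0.19 without WT replicate 1. Cox8a and Cox7a2, subunits of cytochrome c oxidase, were at -0.15 and -0.16, and Rpl17 was at -0.17. After correction for transcript length and GC content, Cox8a was at -0.088, Cox7a2 at -0.104 and Rpl17 at -0.129. Usmg5, Rpl17 and the long noncoding RNA Gm3294 (-0.31) could share reads with related sequences and are uncertain. Sub1, a transcription coactivator, was at -0.16.

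Choosing genes by a small p with the mutants as 1 group favours genes in which HT and HM mice lie close together, so their similarity in these 24 genes is a description only. Col24a1 was at -0.71 in HT and -0.50 in HM mice. All 24 genes had an unadjusted p under 0.05 by limma in each of the 12 fits that left out 1 mouse, as did 314 higher and 194 lower genes of all tested. This too follows in part from how they were chosen.

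**Figure D2:**
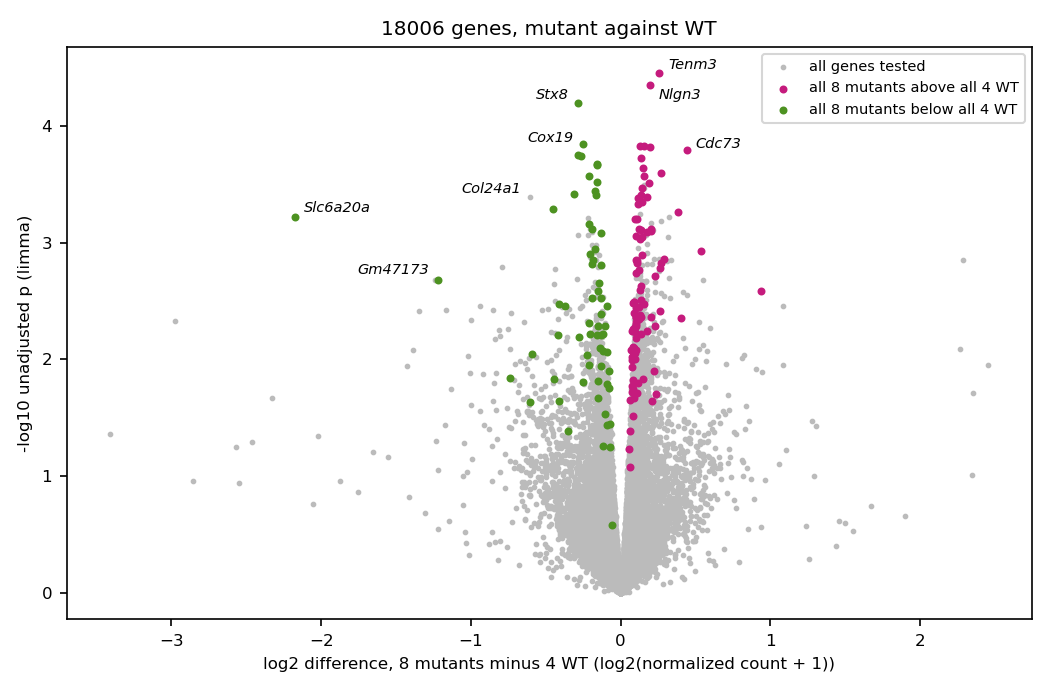
Log2 difference of 8 mutants minus 4 WT mice (x axis) against -log10 of the unadjusted p from limma (y axis) for 18006 genes. Coloured points are the 97 genes with all mutants above and the 63 with all mutants below the WT mice. Slc6a20a has the largest difference of the coloured points, at -2.18, while Tenm3 and Nlgn3 have the smallest p.

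In 160 genes, or 0.889% of those tested, the 8 mutants and the 4 WT mice did not overlap. Mutants were above WT in 97 (0.539%) and below in 63 (0.35%). The count was 340 without WT replicate 1, 455 without WT replicate 2, 409 without WT replicate 3, 369 without WT replicate 4, 258 without HT replicate 2 and 248 without HM replicate 3. The widest gap among genes higher in mutants was in Gm41396, an antisense transcript near the limit of detection, with 6.33 ± 0.588 (SD) normalized counts in WT and 13.6 ± 4.86 in mutants. Among the 160 genes, 8 had an unadjusted p under 0.05 for HM minus HT, by limma, where 3.21% of all genes did. These 8 were Atp1b2, Dlx1, Gtf3c4, Ppp1r26, Slc6a20a, Gm47173, Acad10 and C1qtnf12, named after their values were seen. Gtf3c4, a subunit of the RNA polymerase III factor TFIIIC, was higher by 0.29 in the pooled mutants and by 0.25 in HM over HT mice. Slc6a20a was the only gene tested with an adjusted p under 0.05 for HM minus HT (limma, BH), which is 0.00555% of genes.

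Genes of the protein synthesis and respiratory machinery tended to lie below 0, and the size of this depended on WT replicate 1. Of 83 genes for cytosolic ribosomal proteins, 29 were lower and 0 higher at an unadjusted p under 0.05, and the median difference was -0.0888, against -0.0017 over all genes tested. Without WT replicate 1, 15 were lower and 1 higher, with a median of -0.0369, whereas without WT replicate 2, 57 were lower, with a median of -0.128. Once length and GC content had been corrected for within each mouse, 16 were lower and 0 higher, with a median of -0.0463. The share of all genes tested was 3.67% lower and 4.75% higher after this correction, and 3.72% lower and 4.0% higher without WT replicate 1. The part of WT replicate 1 in this result was not tested further. Rpl9 was at -0.22 and Rpl13a at -0.20, and both could share reads with pseudogenes.

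Of 83 nuclear genes for respiratory chain subunits, 16 were lower and 0 higher, with a median of -0.0518. The counts were 5 lower and 3 higher, with a median of -0.00589, when WT replicate 1 was left out, and 27 lower without WT replicate 2. Ndufb9, of complex I, had 4369 normalized counts in WT replicate 1 and 3608, 3867 and 4017 in the other WT mice, against 3410.3 to 3773 in mutants. Of 78 genes for mitochondrial ribosomal proteins, 9 were lower and 0 higher (median -0.0471), and without WT replicate 1 there were 2 lower and 1 higher (median -0.024). Without WT replicate 2, 14 were lower. Among 13 messages encoded by mitochondrial DNA, 1 was lower, mt-Co3, which ranged from 38875 to 88194 normalized counts in WT and from 20416 to 99916 in mutants. The number lower was 0 without WT replicate 1 or HM replicate 1 or 2, and 2 without WT replicate 4 or HT replicate 3. It was 0 after correction for length and GC content or with a block for the start of the animal number. The median of these 13 was -0.0583 and changed sign, to 0.0225, after correction for length and GC content.

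**Figure D3:**
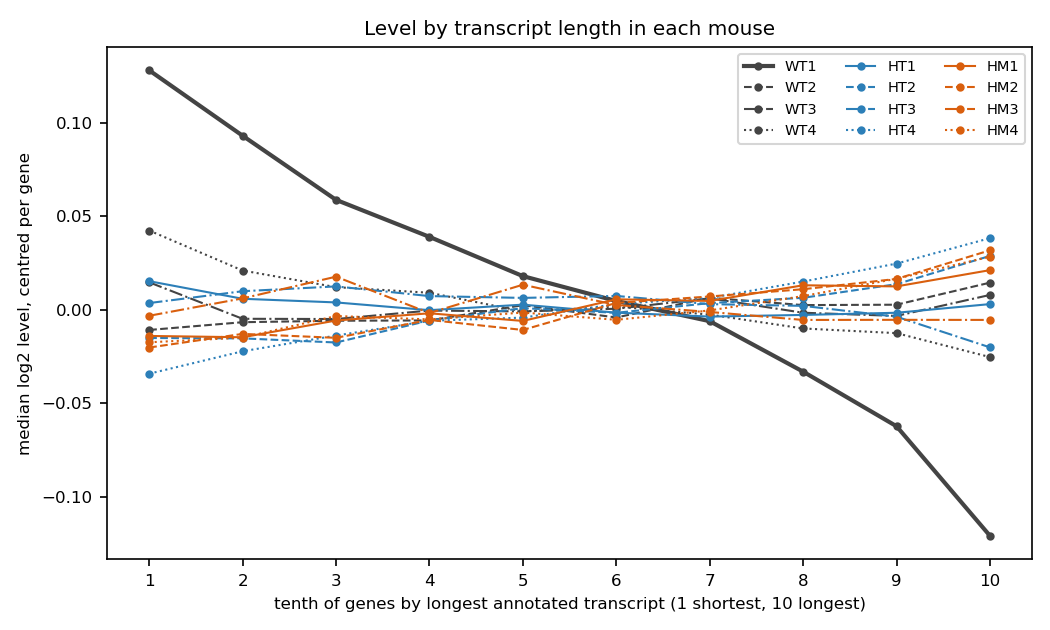
Median log2 level, centred per gene, in each mouse (y axis) for 10 bins of genes ordered by the longest annotated transcript (x axis). Each line is 1 mouse, coloured by genotype. WT replicate 1 goes from 0.128 in the shortest bin to -0.121 in the longest, and the other 11 mice stay closer to 0.

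Transcript length moved with the difference across all genes. The median difference was -0.0541 in the shortest bin and 0.0447 in the longest, and -0.0288 and 0.0154 without WT replicate 1. Genes higher at an unadjusted p under 0.05 had a median length of 5150.0 bases and those lower 2547, against 3167.5 over all genes tested. Without WT replicate 1, 721 genes were higher and 669 lower at an unadjusted p under 0.05, and no gene passed after adjustment (limma, BH).

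Genes for adhesion and guidance proteins tended to lie above 0. Among 56 clustered protocadherins, surface proteins that give neurons an identity, 15 were higher and 0 lower at an unadjusted p under 0.05. Their median difference was 0.125, and without WT replicate 1 the counts were 7 and 0, with a median of 0.0955. Pcdhgb7 was higher by 0.27, Pcdhga4 by 0.29 and Pcdhgc5 by 0.13 (0.08 without WT replicate 1). Protocadherins of the gamma cluster share exons at their 3′ end, so that reads could be assigned to the wrong member.

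Of 8 neuroligins, neurexins and MDGA proteins, 4 were higher and 0 lower, with a median of 0.108. Leaving out WT replicate 1 gave 5 higher and a median of 0.0938. Correction for length and GC content gave 3 higher and a median of 0.0711. Besides Nlgn3, the 4 included Mdga1, which binds neuroligins (0.23), and Nlgn1 (0.11).

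Of 11 teneurins, latrophilins and FLRT proteins, 4 were higher and 0 lower, and these were the 4 teneurins. Without WT replicate 1, 1 was higher and 1 lower, and the median of 0.0978 became 0.0383. Without WT replicate 2, 7 were higher and 0 lower, with a median of 0.133. Tenm1 had 1719 normalized counts in WT replicate 1 and 2543, 2246 and 2166 in the other WT mice, against 2117 to 2924 in mutants. Its difference of 0.24 was 0.13 without that mouse, whereas that of Tenm3 was 0.23.

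Of 44 axon guidance genes, 14 were higher and 1 lower, with a median of 0.0641. When WT replicate 1 was left out, 9 were higher and 2 lower, with a median of 0.0608. Robo1, Sema5a and the Robo ligand Slit1 were higher by 0.22, 0.20 and 0.15, and the lower gene was Robo3 (-0.17). Slit1 had 3327, 3783, 3639 and 3533 normalized counts in WT mice and 3820.0 to 4135 in mutants, without overlap.

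**Figure D4:**
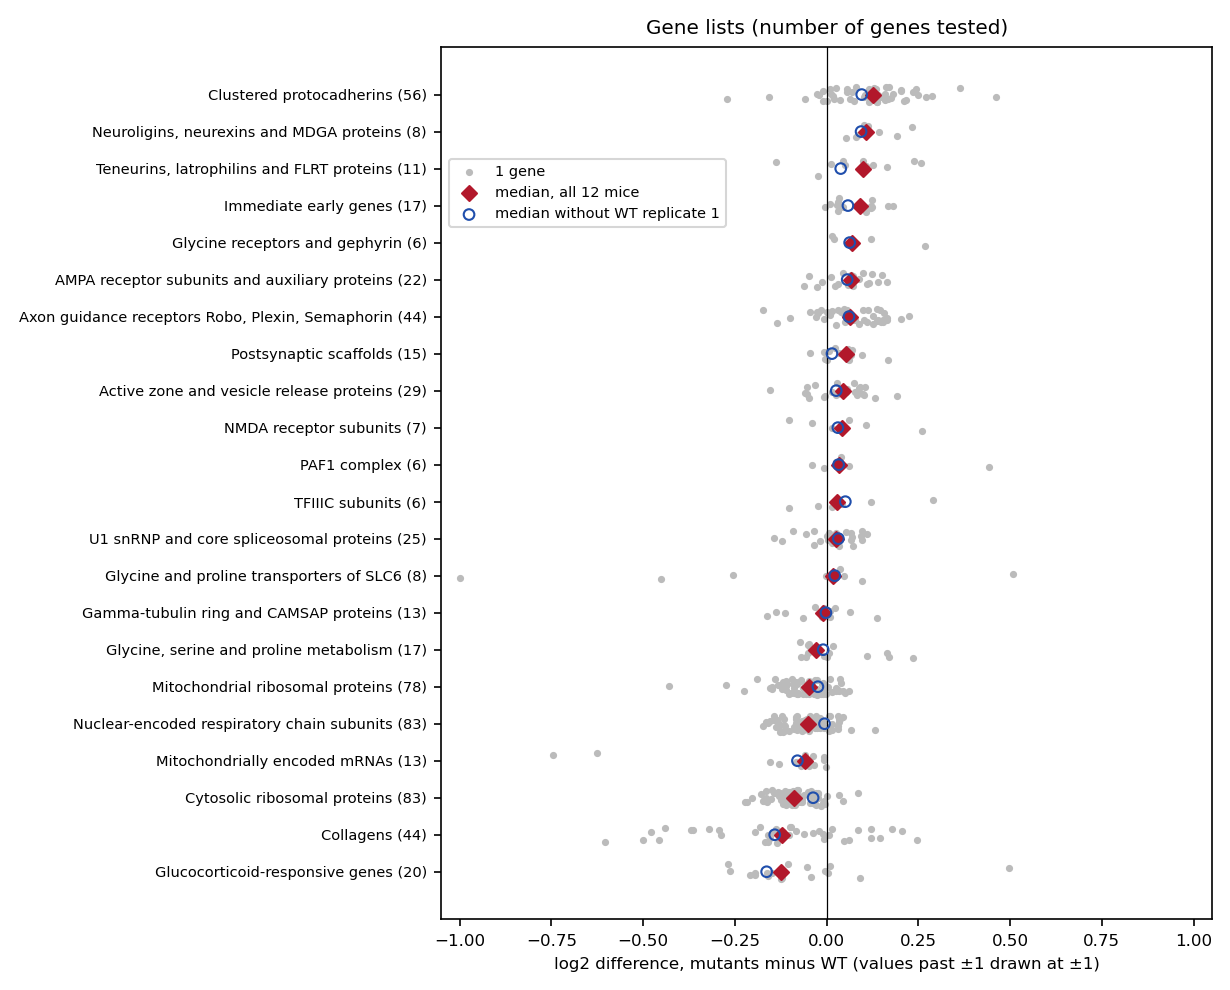
Log2 difference of mutants minus WT (x axis) for the tested genes of 22 lists (y axis, number of genes tested in brackets). Grey points are genes, filled diamonds list medians over all 12 mice and open circles medians without WT replicate 1. The 2 medians lie apart for the cytosolic ribosomal list (-0.0888 and -0.0369) and close together for the axon guidance list (0.0641 and 0.0608).

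Genes around glycine itself showed few differences. Among 8 glycine and proline transporters of the SLC6 family, Slc6a20a was lower and Slc6a17, a vesicular transporter of neutral amino acids, was higher by 0.10, at an unadjusted p under 0.05. Slc6a17 was at 0.06 (unadjusted p = 0.0695, limma) without WT replicate 1 and at 0.07 (unadjusted p = 0.0542, limma) after correction for length and GC content. Slc6a5, the glycine transporter of glycinergic neurons, had 44.5, 7.42, 11.02 and 7.61 normalized counts in WT mice. The mutants had 12.0 to 28.3, so the difference was 0.51 (unadjusted p = 0.196, limma) and became 1.07 (unadjusted p = 0.00142) without WT replicate 1. It was named after its values were seen. Among 17 genes of glycine, serine and proline metabolism, 3 were higher and 0 lower. They were Srr, which makes D-serine (0.11), Gldc, of the glycine cleavage system (0.17), and Psph, the last enzyme of serine synthesis (0.17). When WT replicate 1 was left out, Gldc was higher (0.18) and Prodh, of proline breakdown, lower (-0.12), and Srr was at 0.06 (unadjusted p = 0.149, limma). Gldc was at 0.10 (unadjusted p = 0.154, limma) without WT replicate 2. Among 6 glycine receptor and gephyrin genes, 2 were higher, among them Glra1 (0.27), and 0 were without WT replicate 1.

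Among 7 NMDA receptor subunits, Grin2b and Grin2a were higher and 0 were lower. The number higher was 3 without WT replicate 2 or HM replicate 3 and 2 without WT replicate 3 or HT replicate 3. It was 1 when any other mouse was left out. After correction for length and GC content, or with a block for the start of the animal number, it was also 1. Grin2b had 13507, 20338, 18978 and 16988 normalized counts in WT mice and 17281 at the lowest, 20947 at the median and 22347 at the highest of the mutants. WT replicate 1 was far below the other WT mice, and the groups overlapped. The difference in Grin2b was 0.26, and 0.14 without WT replicate 1, and that in Grin2a 0.11, and 0.05 without it.

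Among 22 AMPA receptor subunits and auxiliary proteins, 7 were higher and 0 lower, with a median of 0.0654. There were 5 higher, with a median of 0.056, when WT replicate 1 was left out. Nptxr, a receptor of pentraxins that gather AMPA receptors, had 24439, 24884, 24987 and 24338 normalized counts in WT mice and 25867 to 27234 in mutants, without overlap, a difference of 0.10 (SE 0.02). Cacng3, an auxiliary subunit, was higher by 0.14, and Gria1, a pore subunit, by 0.09.

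Of 29 active zone and vesicle release genes, 9 were higher and 0 lower (median 0.0449). There were 7 higher without WT replicate 1, with a median of 0.0262, and the median was 0.023 after correction for length and GC content. Syn2, a synapsin that tethers vesicles, had 15182, 14698, 15244 and 14783 normalized counts in WT mice and 15496 to 16201 in mutants, without overlap. Of 15 postsynaptic scaffold genes, Dlg3 (0.07) and Dlgap2 (0.17) were higher, and 0 were without WT replicate 1, when Dlgap2 was at 0.07.

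Most collagens lay below 0, and their transcripts had a median length of 5989 bases. Of 44 collagens, 8 were lower and 1 higher, with a median of -0.121, and without WT replicate 1, 9 were lower and 0 higher, with a median of -0.142. Without HT replicate 3, 14 were lower. After correction for length and GC content, 14 were lower and 1 higher. With a block for the start of the animal number, 6 collagens were lower and 3 higher. Besides Col11a1 and Col24a1, Col6a1 was at -0.13 and Col4a5 at -0.32. Markers of the meninges, which are rich in collagen, had a median of -0.129 over 10 genes, which became -0.0339 without WT replicate 4 and -0.208 without WT replicate 2. Of these Lum was lower (-0.33), and 0 were lower without WT replicate 4 and 4 without WT replicate 2. With a block for the leading digits of the animal number, the median was -0.0591, with 1 higher and 0 lower. The markers summed to 5004.1 to 6743 normalized counts in WT and 4819.5 to 6028 in mutants. They include the collagens Col1a1, Col1a2 and Col3a1, so they are not a measurement separate from the collagens. The part of meningeal tissue in the collagen values was not tested. In such bulk samples, fewer cells of a type and less RNA per cell cannot be told apart.

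Among complexes of transcription and splicing, few members had an unadjusted p under 0.05. Cdc73 was the only gene of 6 in the PAF1 complex with an unadjusted p under 0.05. In TFIIIC, Gtf3c4 (0.29) and Gtf3c5 (0.12) of 6 genes were higher. Of 25 spliceosomal genes, Prpf8 (0.10) and Sf3b4 (0.10) were higher, and Snrnp70 (-0.12) and Snrpa1 (-0.14) lower. Of 13 gamma-tubulin ring and CAMSAP genes, Camsap1 (0.14) was higher, and Tubgcp6 (-0.16) and Mzt1 (-0.11) lower. In TFIIIC 1 gene was higher without WT replicate 1 or 2, HT replicate 1, 2 or 3, or HM replicate 2. In the spliceosomal list 1 was higher without HT replicate 1, 3 or 4, or HM replicate 2 or 3. It was 3 without WT replicate 1, 2 or 3, or HM replicate 4. Without WT replicate 1 or 4, or HM replicate 1 or 3, 3 gamma-tubulin ring and CAMSAP genes were lower.

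Among 17 immediate early genes, which neurons induce within minutes of activity, Fosb was higher (0.17). The number higher was 0 without WT replicate 1, HT replicate 2 or 3, or HM replicate 2 or 3. The list median of 0.0919 became 0.0115 without HM replicate 2. Fosb was at 0.09 without WT replicate 2. Of 20 genes induced by glucocorticoids, 4 were lower and 0 higher, with a median of -0.124. They were Mt1 (-0.12), Sgk1 (-0.21), Errfi1 (-0.20) and Mt2 (-0.15), and 2 were lower without WT replicate 1. The number lower was 1 without WT replicate 2, 0 without WT replicate 3, 2 without HT replicate 1, HT replicate 3 or HM replicate 1, and 7 without HM replicate 4.

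Markers of cell types and of neighbouring tissues were measured beside these lists. At an unadjusted p under 0.05, 4 of 8 endothelial markers were higher, namely Pecam1, Tek, Cdh5 and Vwf. This count was 1 without WT replicate 1 or 3, 0 without WT replicate 2 and 2 without HT replicate 3 or HM replicate 1. Of 9 microglial markers 3 were lower, among them C1qc and C1qa. The median was -0.0782 (-0.0285 for HT and -0.113 for HM mice), and 3 of the 9 lay above 0. The number lower was 0 without WT replicate 1 or 4 and after correction for length and GC content. It was 1 without WT replicate 3, HT replicate 1 or 4, or HM replicate 1 or 2. With a block for the start of the animal number, 0 microglial markers were lower and 1 was higher. Gad2 and Syt1 of 8 neuronal markers and Slc1a2 of 8 astrocyte markers were higher, and 0 of 8 oligodendrocyte markers were higher or lower. Without WT replicate 1, 1 neuronal, 0 astrocyte and 1 oligodendrocyte markers were higher. Without WT replicate 4, 0 neuronal and 3 astrocyte markers were higher, and without WT replicate 2, 2 oligodendrocyte markers were lower. In the fit to all mice the count was also 0 for 12 olfactory bulb, 10 choroid plexus, 5 erythrocyte, 2 pituitary, 9 cerebellar and 6 muscle markers. The olfactory bulb median was -0.154 for HT and 0.603 for HM mice, and the erythrocyte median -0.828 and 0.163, so that the pooled medians of 0.192 and -0.391 stand for no single genotype. With the animal-number block 4 of the 5 erythrocyte markers were lower, with a median of -0.766, and 1 cerebellar marker was higher. Without WT replicate 1 the erythrocyte median was -0.112, and 1 olfactory bulb and 1 cerebellar marker were higher. Their part in the other results was not tested.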

How the data were processed

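RNA from 12 whole brains was sequenced by the authors after poly-A selection (TruSeq v2 kit, both read ends). Per the labels, Salmon 1.1.0 on GRCm38 and DESeq2 1.30.1 were used, and the study's methods name a GC correction and tximport. The deposited values are a normalized count signal, not whole reads. Few low values (6.34% to 24.0% per library, within 0.02 of a read) were multiples of 1 read, and count models were therefore not fitted. Files were matched to mice by title, and 0 sample columns were left unused. GENCODE M21 gave symbols and positions for 19758 of 19775 identifiers and not for 17.

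Values were analysed as log2(value + 1) with limma 3.58.1 in R 4.3.3, a mean-variance trend in the prior, in genes with a mean of at least 10, and with BH adjustment at 0.05. Further steps used Python 3.11.15. The median of total degrees of freedom was 16.8. P-values measure the spread between single mice. The step was tested on simulated data. The members and lists were chosen with earlier results of these data known, and gene lists were described without a test. Named genes were Slc6a20a, Slc6a20b, the 12 with the smallest p in each direction, Nlgn3, Tenm3 and Cdc73, and up to 4 members per list with an unadjusted p under 0.05, or the 2 most abundant members where none had. Genes of the Slc6a20a locus, the non-overlapping genes, Robo3, Slc6a5 and Prodh were named outside this rule. A few genes that the rule names are not reported here, though counts include them. Length and GC content were corrected by loess (span 0.4) in 17992 genes. Alternatives were other pseudocounts (0.1 and 5), filters, groupings, blocks, variance priors and scalings, and each mouse left out.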

Additional observations from a re-analysis of the deposited data

Results flagged for a closer look

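Polg in HM replicate 3 had 2887 normalized counts, against 2676 to 2712 in the other 3 HM mice, a gap that is wide for a group of 4. Among 104 groups of mice (each genotype, and the pooled mutants) examined over 26 genes this was the only one, and chance gives about 1 in 20. The log2 difference of HM minus HT in Slc6a20a was -2.408, so that the difference from WT was not the same in both mutant genotypes (BH-adjusted p = 6.86e-09, limma).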

How the results depend on the processing

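No gene passed adjustment in any of the 12 fits without 1 mouse (limma, BH), where 1390 to 1866 genes had an unadjusted p under 0.05. The non-overlapping genes then numbered 199 to 455, with 110 to 244 higher and 83 to 211 lower. Among the named genes, the count with an adjusted p under 0.05 for HM minus HT was 1 to 2, with 2 reached without HT replicate 4. With 1 genotype in the mutant group, 1 gene passed for HT mice alone and 2 for HM mice alone (limma, BH). HT mice alone gave 569 higher genes at an unadjusted p under 0.05. They had 672 non-overlapping genes (328 higher, 344 lower) and HM mice alone 755 (431 higher, 324 lower), with fewer mice to overlap. The 3-genotype fit passed 1 gene, Slc6a20a, at -2.178, and this gene also passed at -0.9734 in HT and -3.382 in HM mice alone. Signs turned in Mbp (0.01561, quantile normalization), Calb2 (-0.007758, HT alone), Hbb-bs (0.08131, HM alone), Hba-a2 (0.2464, HM alone) and Pcp4l1 (0.01086, length and GC correction), and without WT replicate 1 in Pomc, Pcp4l1 and Acta1, whose ranges over the mice left out were -0.01089 to 0.5041, -0.0489 to 0.01444 and -0.08519 to 0.01863. None of these had passed, and the cause was not tested. Deviations of same-numbered mice from their group means had correlations of -0.0658 to 0.0869. Some of these mice, such as WT replicate 2 and HT replicate 2, also share the start of the animal number. Whether same-numbered mice share more than that was not tested. With the replicate block 0 genes passed and 1583 had an unadjusted p under 0.05 (limma). With a block for the start of the animal number, 0 passed and 1487 had, and Slc6a20a was at -1.718. HM replicates 1 and 2 share no start with other genotypes and do not bear on that value. Count models (edgeR, DESeq2) were not run, since the table holds no counts. Depth limits genes near the mean of 10, such as Gm41396, and sharing of reads between related genes was not measured.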
